A study of Mus musculus with 36 samples.

Results

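The proteasome subunit genes were the protein-coding genes whose symbol is Psma, Psmb, Psmc, Psmd, Psme or Psmg followed by a number. Among the 55492 entries of the counts, 47 matched, and 45 of them had a mean above 5 counts over the 36 RNAseq libraries and were tested among 20355 genes. The 2 members outside this filter were Psmb8 (mean 4.36 counts) and Psma8 (0.25 counts), and Psmb11 (7.86) and Psmb9 (10.4) lay just inside it. The cultures were dissociated cortical cells of C57 mice at embryonic day 18, a commercial preparation that was grown for 10 days. They then received fresh medium alone (control), 1 µM dexamethasone (DEX, a glucocorticoid receptor agonist), or 1 µM DEX together with 1 µM of the receptor antagonist RU-486 (mifepristone), for 72 h with a renewal at 48 h. Each of the 3 groups had 12 libraries, 6 in batch 1 and 6 in batch 2, and the labels do not say which libraries came from separate preparations of cells, so a p-value measures the spread between libraries, which may be technical.

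The proteasome degrades proteins tagged with ubiquitin. Its 20S core is a barrel of stacked rings: the outer rings of alpha subunits (Psma genes) gate the entrance, and the inner rings of beta subunits (Psmb genes) hold the proteolytic sites of Psmb5, Psmb6 and Psmb7. The 19S cap carries a ring of ATPases (Psmc genes) that unfold the substrate and non-ATPase subunits (Psmd genes) that bind and remove ubiquitin. Under interferon, Psmb8, Psmb9 and Psmb10 replace the constitutive catalytic subunits to form the immunoproteasome, and the activators PA28 (Psme1 to Psme3) and PA200 (Psme4) can dock in place of the cap. Psmg genes encode chaperones of core assembly, and Psmd5, Psmd9 and Psmd10 chaperones of the cap. In neurons the proteasome also turns over synaptic proteins, and in muscle glucocorticoids are known to raise ubiquitin-dependent degradation.

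The libraries held between 12.1 and 82.4 M counts. In batch 1, controls ranged from 24.2 to 82.4 M, DEX libraries from 12.1 to 22.3 M and DEX + RU-486 libraries from 17.4 to 26.7 M. The RNA integrity number (RIN) in batch 1 was 7.8 to 9.2 in controls, 3.9 to 7.8 in DEX and 5.6 to 7.9 in DEX + RU-486, so depth and RIN went with the treatment there. In batch 2 the libraries held 12.4 to 47.3 M counts, the highest RIN was 8.0 in controls, 7.7 in DEX and 8.7 in DEX + RU-486, and 6 libraries had a RIN under 3. Together the members took between 0.0694% and 0.272% of all counts of a library. The summed level of 10 neuron markers was 2696 CPM or more in every library, where CPM is the TMM-scaled count relative to library size. It was 11.9 CPM or less for 7 microglial genes, while 9 oligodendrocyte-lineage genes reached 2367 CPM in a batch 1 DEX library and 2625 CPM in a batch 2 control, close to the lowest neuron sums.

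Per exon length, the core and cap subunits had mean levels from 5.67 (Psmd11) to 37.9 CPM per kb (Psmc1), above those of the immunoproteasome subunits. The order over all 36 libraries began with Psmc1, an ATPase of the cap, at 37.9 ± 5.89 CPM per kb (SD, n = 36). Psmd7 at 29.3, the ubiquitin receptor Psmd4 at 28.98 and Psmd2 at 28.1 CPM per kb followed, with Psma6 just below. They did not differ from each other by more than their SDs, which span both batches and all groups. Psmc1 was first in each group of each batch, and in batch 1 controls Psma6 came second, at 38.4 ± 3.55 CPM per kb (SD, n = 6). The class medians were 19.4 CPM per kb for the alpha ring, 18.3 for the constitutive beta ring, 19.96 for the ATPases, 12.9 for the non-ATPase subunits and 9.99 for the activators. The assembly chaperones were lower, with medians of 4.20 CPM per kb for the core and 3.27 for the cap. Psmb10 reached 3.47, Psmb9 0.134 and Psmb11, the thymus-specific catalytic subunit, 0.0992 CPM per kb. Lengths were those of all annotated exons, so a gene with a long unused exon reads too low.

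**Figure D1:**
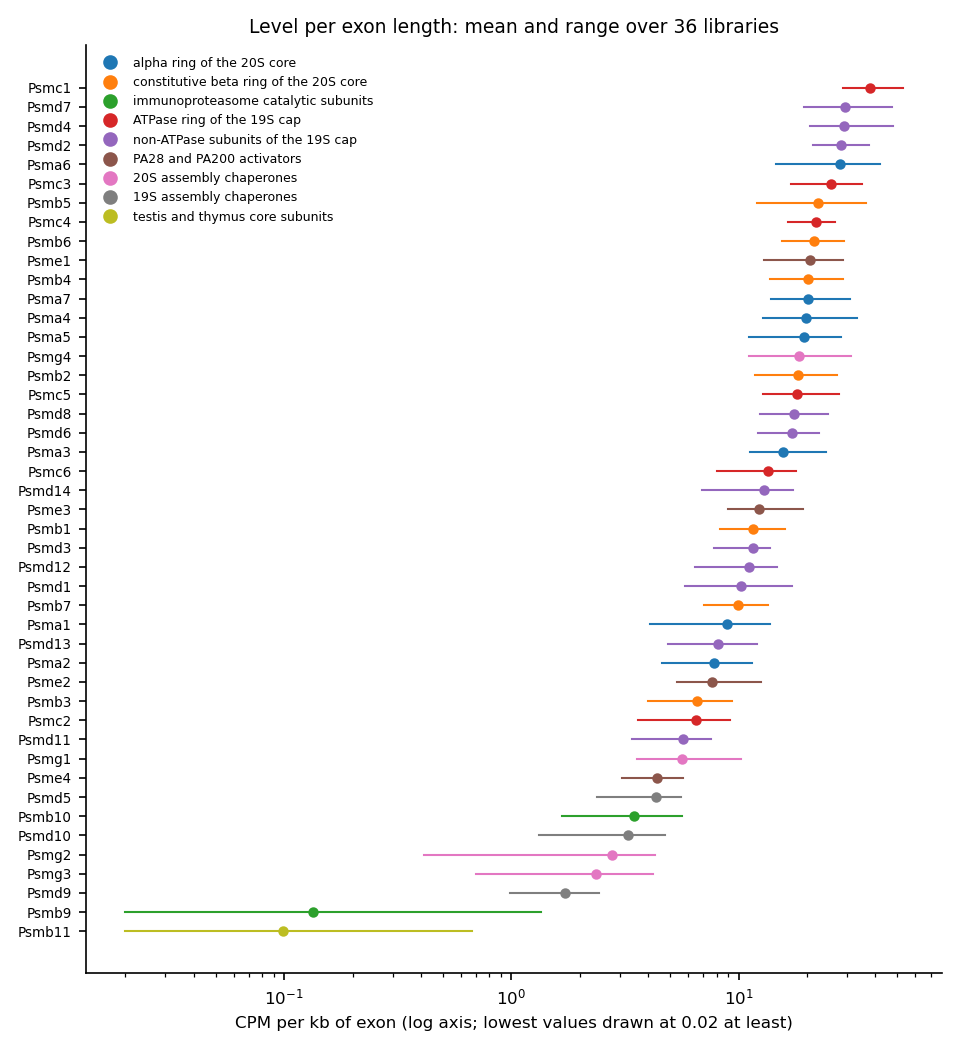
Points give the mean CPM per kb of exon of each of the 45 genes over 36 libraries on a log axis, lines the lowest to the highest library, and colors the class. Psmc1 is at the top at 37.9 CPM per kb, and Psmb9 and Psmb11 are at the bottom.

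Against control, across both batches, no proteasome gene was called in any of the 3 comparisons. This used edgeR's quasi-likelihood test with the batch as a covariate and an adjusted p under 0.05. For DEX against control, 0 of 45 members were called (0.0246% of all tested genes were), and at an unadjusted p under 0.05, 0 were higher (6.86% of all genes) and 11 lower (10.1%). For DEX + RU-486 against control 0 were called (0% of all genes), and the unadjusted test gave 0 higher (4.19%) and 17 lower (6.63%). For DEX + RU-486 against DEX 0 were called (0%), with 0 higher (1.44%) and 3 lower (1.23%). The 3 became 1 without DEX library 12, and 5 without DEX + RU-486 library 31 or with a RIN of 6 or above. No share of all genes at an unadjusted p is given for these refits. DESeq2 called 0 members in each of the 3 comparisons. The median log2 fold change of the members was -0.10 for DEX and -0.16 for DEX + RU-486, beside -0.01 and 0.02 over all genes, and 10 and 3 of the 45 were above 0. The 2 members with the smallest p for DEX were Psmd13, a lid subunit of the cap, at -0.29 ± 0.09 (SE, adjusted p = 0.103) and Psma6 at -0.31 ± 0.11 (adjusted p = 0.151). For DEX + RU-486 they were Psma4, an alpha subunit, at -0.38 ± 0.10 (adjusted p = 0.149) and Psmd13 at -0.32 ± 0.09 (adjusted p = 0.184). Between the treatments they were the ATPase Psmc4 at -0.17 ± 0.07 and the chaperone Psmg4 at -0.32 ± 0.14 (adjusted p = 1.00 for both). Without library 20, a batch 2 control, 2 members were called lower for DEX and 3 for DEX + RU-486, where 4.38% and 1.37% of all genes were called lower, so the DEX count is at the background. In libraries with a RIN of 6 or above, 8 and 12 members were called lower, among them Psma4, Psmd1 and Psmd13 in both, where 11.9% and 5.87% of all genes were called lower.

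In batch 1 with DEX, 9 of 45 members were called lower (9.99% of all genes were) and 1 higher (8.99%). With RLE scaling 5 were called lower, 11.1% of the members against 8.68% of all genes, which is near the background. The same 5 of 45 was reached without control library 5 (8.534% of all genes) or DEX library 8 (8.745%) or 9 (9.565%). Without DEX library 11, 16 were called lower (11.21%), and with RIN as a covariate 1 was (1.77%). The 9 were Psma3, Psma4 and Psma6 of the alpha ring, Psmb7, the ATPase Psmc5, the cap subunits Psmd1, Psmd11 and Psmd14, and the activator Psme3. With DEX + RU-486, 13 were called lower (8.46% of all genes) and 1 higher (6.92%), and with RLE scaling 8 lower (7.12%). The lower count was 8 without control library 2, 4, 5 or 6 (5.86% to 8.57% of all genes). It was 7 without DEX + RU-486 library 15 (6.08%) or 17 (6.34%). The 13 were Psma2, Psma3, Psma4, Psma6, Psmb7, Psmc5, Psme3, and the cap subunits Psmd1, Psmd6, Psmd8, Psmd11, Psmd12 and Psmd13. By class, 3 of 7 alpha subunits, 1 of 7 constitutive beta subunits, 1 of 6 ATPases, 3 of 11 non-ATPase subunits and 1 of 4 activators were called lower with DEX, and 4, 1, 1, 6 and 1 with DEX + RU-486. None of the 7 assembly chaperones and neither of the 2 immunoproteasome subunits was called. The median over the members was -0.16 for DEX and -0.24 for DEX + RU-486, beside 0.06 and 0.05 over all genes. Both comparisons share the 6 control libraries. The difference of these effects from those in batch 2 was called for 0 of 45 members with either treatment (smallest adjusted p = 0.0767). The shares of all genes called were 0.172% for DEX and 0.0835% for DEX + RU-486. DESeq2 called 2 members higher for DEX (0.84% of all genes). With a RIN of 6 or above, 5 were called higher for DEX (3.18%) and 1 for DEX + RU-486 (1.27%). Between the treatments in batch 1, 0 members were called (0% of all genes), an unadjusted p under 0.05 was reached by 0 higher (1.77%) and 0 lower (2.32%), and DESeq2 called 0. The unadjusted lower count was 4 without DEX library 7 or DEX + RU-486 library 13, 2 without library 8 or 18, 1 without library 10, 12 or 14, and 3 with a RIN of 6 or above. No share of all genes at an unadjusted p is given for these refits, so these counts cannot be set against a background. With all batch 1 libraries, the smallest p between the treatments were those of Psmg1, at -0.31 ± 0.15, and Psme2, at -0.34 ± 0.18 (adjusted p = 1.00 for both). In bulk RNA, fewer cells of a type and less RNA per cell cannot be told apart.

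**Figure D2:**
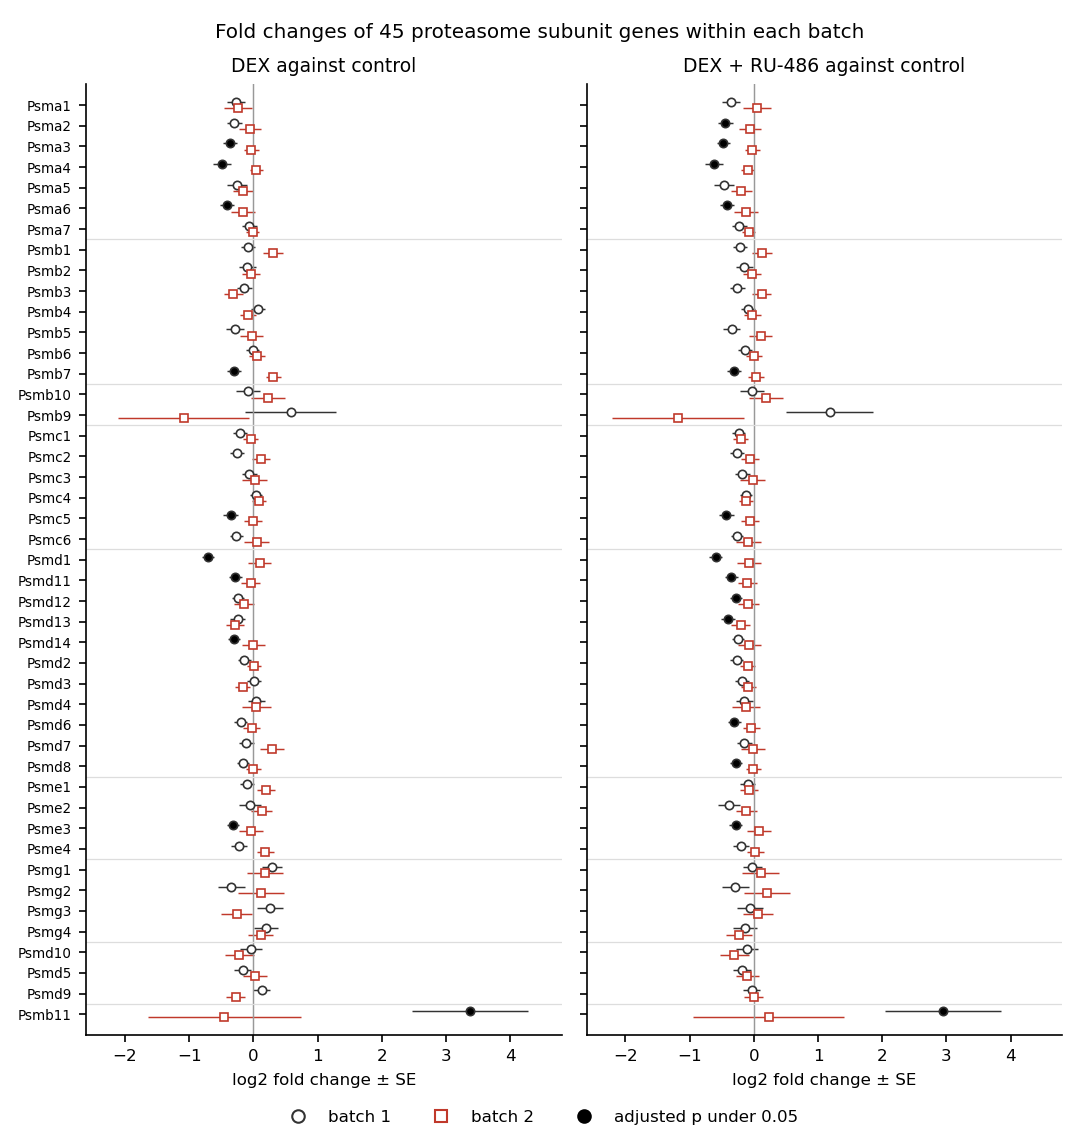
The log2 fold change ± SE of each of the 45 genes is shown for DEX (left) and DEX + RU-486 (right) against control, in batch 1 (circles) and batch 2 (squares), and filled symbols have an adjusted p under 0.05. Filled symbols occur in batch 1 alone, and all but Psmb11 lie to the left of 0.

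Psmd1, a scaffold subunit of the cap base (chr1:86064387-86139151 in GENCODE M21 on GRCm38), had the smallest p in both comparisons. Its level in batch 1 controls had a lowest value of 91.5 CPM, a median of 101 and a highest of 124 CPM. In DEX libraries the lowest, median and highest were 56.2, 61.8 and 70.2 CPM, and in DEX + RU-486 58.0, 69.3 and 72.3 CPM. All 12 treated libraries thus lay below all 6 controls. On the log2 scale the DEX libraries were at -0.71 ± 0.10 (SE; adjusted p = 0.000323) and those with DEX + RU-486 at -0.59 ± 0.10 (adjusted p = 0.00109) relative to control. It passed with each of the 18 libraries left out in turn, and with RIN as a covariate (-0.67, adjusted p = 0.00956). In batch 2 the controls ranged from 42.4 to 81.7 CPM, the DEX libraries from 52.9 to 98.8 and the DEX + RU-486 libraries from 51.9 to 76.8, and the groups overlapped. The DEX effect there was 0.10 ± 0.18. Psmd1 shares 4.14% of its exon length with Gm21972 and Psmb7 11.8% with Nek6, and Psmd13 10.1% with Sirt3, which could take or give reads.

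Of the 7 alpha subunits, Psma3, Psma4 and Psma6 were called lower in both comparisons. Psma4 in batch 1 controls had values of 59.1 to 78.6 CPM with a median of 67.4. Values with DEX were 33.8 to 62.6 (median 43.9), with 2 of the 6 libraries inside the control range, and with DEX + RU-486 30.3 to 49.6 (median 45.5), all below the controls. The log2 fold changes were -0.49 ± 0.14 (adjusted p = 0.0179) and -0.62 ± 0.14 (adjusted p = 0.00724). Psma3 went from a control median of 81.3 CPM to 57.4 with DEX and 58.2 with DEX + RU-486, log2 fold changes of -0.37 ± 0.11 (adjusted p = 0.0189) and -0.47 ± 0.11 (adjusted p = 0.00653). Psma6 had medians of 47.9, 33.4 and 34.8 CPM, log2 fold changes of -0.41 ± 0.11 (adjusted p = 0.0149) and -0.42 ± 0.11 (adjusted p = 0.0164). These 3 genes passed in both comparisons whichever library was left out. With RIN as a covariate none of the 3 was called, and the values for DEX and DEX + RU-486 were -0.19 ± 0.13 and -0.33 ± 0.11 for Psma3, -0.45 ± 0.19 and -0.58 ± 0.16 for Psma4, and -0.23 ± 0.14 and -0.28 ± 0.12 for Psma6. In batch 2 none of the 3 was called, and Psma4 had medians of 42.3 in controls, 41.3 with DEX and 38.3 CPM with DEX + RU-486.

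The promoters of Psma3, Psma4 and Psmd1 are shown as examples among the 8 genes called lower in both batch 1 comparisons, chosen after their values were seen. The others were Psma6, which has more than 1 RefSeq start, Psmb7, Psmc5, Psmd11 and Psme3. They are RefSeq sequences on GRCm38.p6, plus strand, from 250 bases before to 50 after the start, and capitals mark CCAAT on either strand, a box bound by NF-Y. They lie at chr12:70974373-70974672, chr9:54950609-54950908 and chr1:86064369-86064668.
Psma3: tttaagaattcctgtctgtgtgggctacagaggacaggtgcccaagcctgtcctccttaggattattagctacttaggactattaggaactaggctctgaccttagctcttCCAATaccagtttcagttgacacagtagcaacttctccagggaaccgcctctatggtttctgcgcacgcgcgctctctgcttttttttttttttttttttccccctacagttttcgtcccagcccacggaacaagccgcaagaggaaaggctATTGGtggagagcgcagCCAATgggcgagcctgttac
Psma4: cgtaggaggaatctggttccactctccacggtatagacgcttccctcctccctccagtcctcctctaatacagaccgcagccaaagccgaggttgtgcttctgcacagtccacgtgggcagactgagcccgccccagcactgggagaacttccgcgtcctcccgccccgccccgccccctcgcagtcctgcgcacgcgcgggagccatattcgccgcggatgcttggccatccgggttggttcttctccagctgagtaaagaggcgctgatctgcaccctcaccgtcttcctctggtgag
Psmd1: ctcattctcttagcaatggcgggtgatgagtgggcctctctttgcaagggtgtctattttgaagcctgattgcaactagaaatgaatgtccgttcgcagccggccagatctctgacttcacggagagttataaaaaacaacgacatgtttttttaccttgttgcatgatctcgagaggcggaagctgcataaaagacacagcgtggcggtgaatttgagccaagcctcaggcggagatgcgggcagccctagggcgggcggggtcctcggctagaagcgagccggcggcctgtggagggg
The promoter of Psma3 held 3 matches, those of Psma4 and Psmd1 held 0, the windows of Psma6 held 2 and 0, and Psme3 held CCAAT as well. In GENCODE M21 Psmd1 begins at base 86064387, near the upstream end of its window. Most of that window thus lies inside the annotated gene, and sequence upstream of that start was hardly covered. Of the 38 members matched to a RefSeq promoter, 14 held CCAAT (36.8%, against 41.1% of 27025 genes with windows of the same length), 5 of them among the 7 alpha subunits. A gene with more than 1 window was counted where any of them held the motif. The core of the antioxidant response element, TGACNNNGC on either strand, occurred in 6 of the 38 (15.8% against 14%). GAAA, any 2 bases and GAAA, the core of the interferon-stimulated element, occurred in 5 (13.2% against 3.99%), which were Psmb3, Psmd4, Psmd9, Psme1 and Psmg4. Psmb9 and Psmb10 held none of this last motif in this window.

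Of the catalytic subunits, Psmb7 carries the trypsin-like site, Psmb5 the chymotrypsin-like site and Psmb6 the caspase-like site. In batch 1 Psmb7 had a control median of 44.1 CPM (34.9 to 46.1), 31.8 with DEX (29.8 to 40.3) and 34.3 with DEX + RU-486 (29.9 to 35.9), so the ranges overlapped. It was called lower at -0.30 ± 0.10 (adjusted p = 0.0426) and -0.31 ± 0.10 (adjusted p = 0.0446), and neither call held with RIN as a covariate, in libraries with a RIN of 6 or above, or with RLE scaling. In batch 2 Psmb7 had a DEX range of 32.3 to 40.4 CPM, above the control range of 25.9 to 31.9, at 0.31 ± 0.12 (adjusted p = 1.00). Psmb5 had log2 fold changes of -0.29 ± 0.14 (adjusted p = 0.143) and -0.34 ± 0.14 (adjusted p = 0.0868) in batch 1, and Psmb6 of -0.01 ± 0.10 and -0.13 ± 0.10. The PA28 subunits Psme1 and Psme2 had -0.10 ± 0.11 and -0.05 ± 0.17 with DEX, and -0.09 ± 0.11 and -0.39 ± 0.17 with DEX + RU-486 (adjusted p = 0.132 for Psme2). Psme2 has a near-identical retrocopy, Psme2b (mean 31.7 counts), so the split of reads between them is uncertain.

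Psmb11 was the member called higher, from few reads. Its counts in the 6 batch 1 controls were 1, 0, 3, 2, 4 and 4, in the DEX libraries 0, 2, 15, 3, 1 and 32, and in the DEX + RU-486 libraries 3, 5, 13, 8, 9 and 10. The DEX values overlapped the controls, and 2 libraries held most of the reads. Its log2 fold change was 3.37 ± 0.91 (adjusted p = 0.0126) for DEX, which did not pass without DEX library 12 (highest adjusted p = 0.0747), and 2.94 ± 0.90 (adjusted p = 0.0306) for DEX + RU-486, which did not pass without control library 1, 2 or 5 or DEX + RU-486 library 15 or 18. Neither call held when counts were thinned to one depth or with RIN as a covariate, and that for DEX did not hold in libraries with a RIN of 6 or above. In batch 2, libraries with a RIN under 3 had Psmb11 higher than those with a RIN of 6 or above, at 3.14 ± 0.67 (adjusted p = 0.000432), so its level moved with RIN as well.

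**Figure D3:**
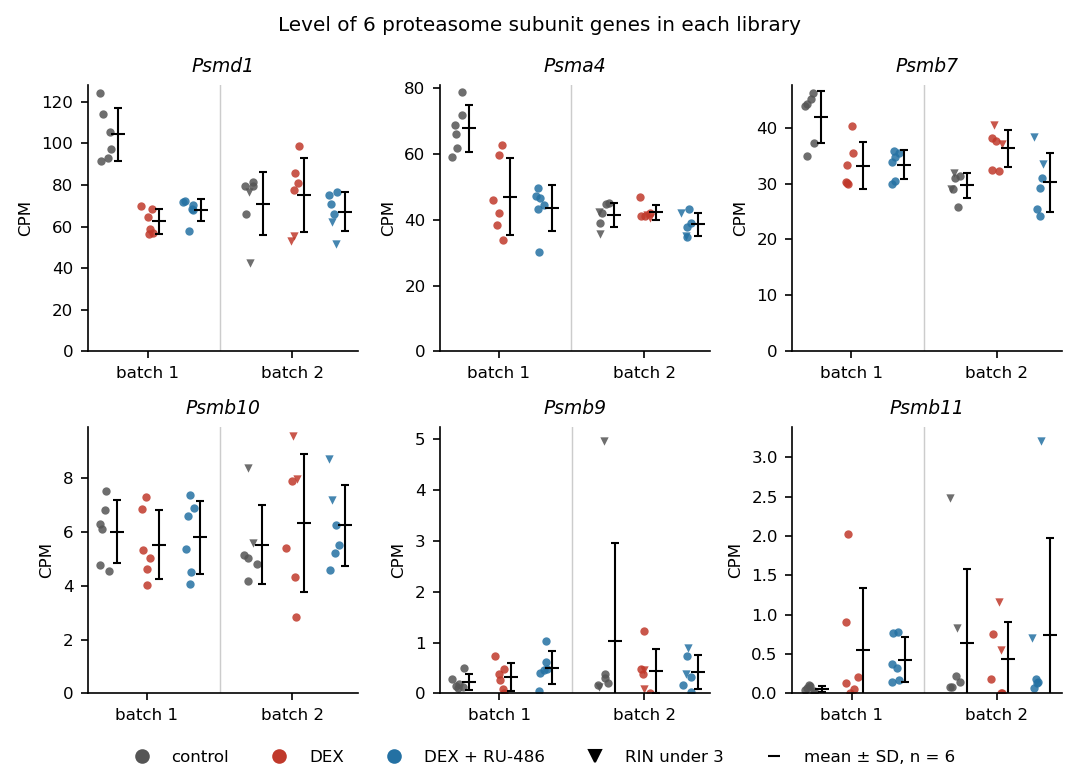
CPM of 6 genes in each library, with control in grey, DEX in red and DEX + RU-486 in blue, triangles for a RIN under 3, and bars for the mean ± SD of 6 libraries. Psmd1 in batch 1 has all 12 treated libraries below all 6 controls, and Psmb9 in batch 2 has 1 control library at 4.96 CPM.

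In batch 2 no member was called. For DEX against control 0 were called (0% of all genes), and at an unadjusted p under 0.05 1 was higher (1.12%) and 1 lower (1.07%), Psmb7 above and Psmb3, a structural beta subunit, at -0.31 ± 0.15. For DEX + RU-486 against control 0 were called (0%), the unadjusted test gave 0 higher (0.472%) and 0 lower (0.423%), and the smallest p were those of Psmc1 (-0.21 ± 0.12) and Psmd13 (-0.20 ± 0.14). For DEX + RU-486 against DEX 0 were called (0%), with 1 higher (1.13%), Psmb3 at 0.43 ± 0.15, and 1 lower (1.05%), Psmb7 at -0.28 ± 0.12. In libraries with a RIN of 6 or above this last comparison had 0 members called, where 1.56% of all genes were called. At an unadjusted p under 0.05, 10 members were lower in that fit. No share of all genes at that threshold is given for it, so the 10 cannot be set against a background. DESeq2 called 0 in each, and every adjusted p named here was 1.00. The median over the members was -0.0024 for DEX, which took either sign as single libraries were left out (-0.038 to 0.010), and -0.06 for DEX + RU-486 (-0.084 to -0.029).

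The difference between batches was tested as an interaction. For the DEX effect 0 members were called (0.172% of all genes), and the unadjusted test gave 7 higher in batch 2 (6.39%) and 2 lower (6.47%). For DEX + RU-486 0 were called (0.0835%), with 7 higher (6.32%) and 0 lower (5.55%). For DEX + RU-486 these unadjusted counts were 3 higher and 1 lower with DESeq2, and 4 and 0 with a RIN of 6 or above. For DEX they were 11 and 0 with a RIN of 6 or above. No share of all genes at an unadjusted p is given for these alternatives. Psmd1 had a difference of 0.82 ± 0.20 and Psmb7 of 0.63 ± 0.15 for DEX (adjusted p = 0.0767 for both). DESeq2 called both (adjusted p = 0.0127 and 0.0270), 4.44% of the members, where it called 0.84% of all genes higher. In libraries with a RIN of 6 or above edgeR called 5 for DEX, with Psmd1 at 0.95 ± 0.13 (adjusted p = 0.00029), Psma4 at 0.63, Psmb7 at 0.59, Psmd7 at 0.53 and Psme4 at 0.49, where 3.18% of all genes were called higher. It called 1 for DEX + RU-486, Psmd1 at 0.50 (adjusted p = 0.0393), a share of the members near the 1.27% of all genes called higher.

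Marker levels moved with the batch 1 result. With DEX, 7 of 10 neuron markers were called lower (median log2 fold change -0.42), and 4 of 8 astrocyte, 8 of 9 oligodendrocyte-lineage and 5 of 5 dividing-cell markers were higher, with 0 of 7 microglial and 0 of 6 endothelial or fibroblast markers. Summed oligodendrocyte-lineage levels ran from 72.7 to 311 CPM in controls, 529 to 2367 with DEX and 241 to 1031 with DEX + RU-486. Summed neuron markers ran from 3621 to 4598, 2706 to 3706 and 2940 to 3792 CPM. With DEX + RU-486, 5 neuron markers were lower, and 3 astrocyte, 6 oligodendrocyte-lineage, 5 dividing-cell and 2 endothelial or fibroblast markers higher. Of the microglial markers, Tmem119 had 0 counts in 22 libraries and C1qa in 17. In batch 2 no marker was called. The part of cell composition in the batch 1 result was not tested. With counts thinned to one depth, 5 members were called for DEX and 8 for DEX + RU-486, all lower, with medians of -0.14 and -0.23, and 8.71% and 7.27% of all genes were called lower. In libraries with a RIN of 6 or above, 6 and 10 were called lower, with medians of -0.16 and -0.20, and 9.72% and 7.104% of all genes were. With RIN as a covariate 1 was called for DEX (Psmd1) and 2 for DEX + RU-486 (Psmd1 and Psmd2), with medians of -0.17 and -0.24. In that fit the share of all genes called in either direction was 2.78% and 2.599%, against 18.97% and 15.4% without the covariate.

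**Figure D4:**
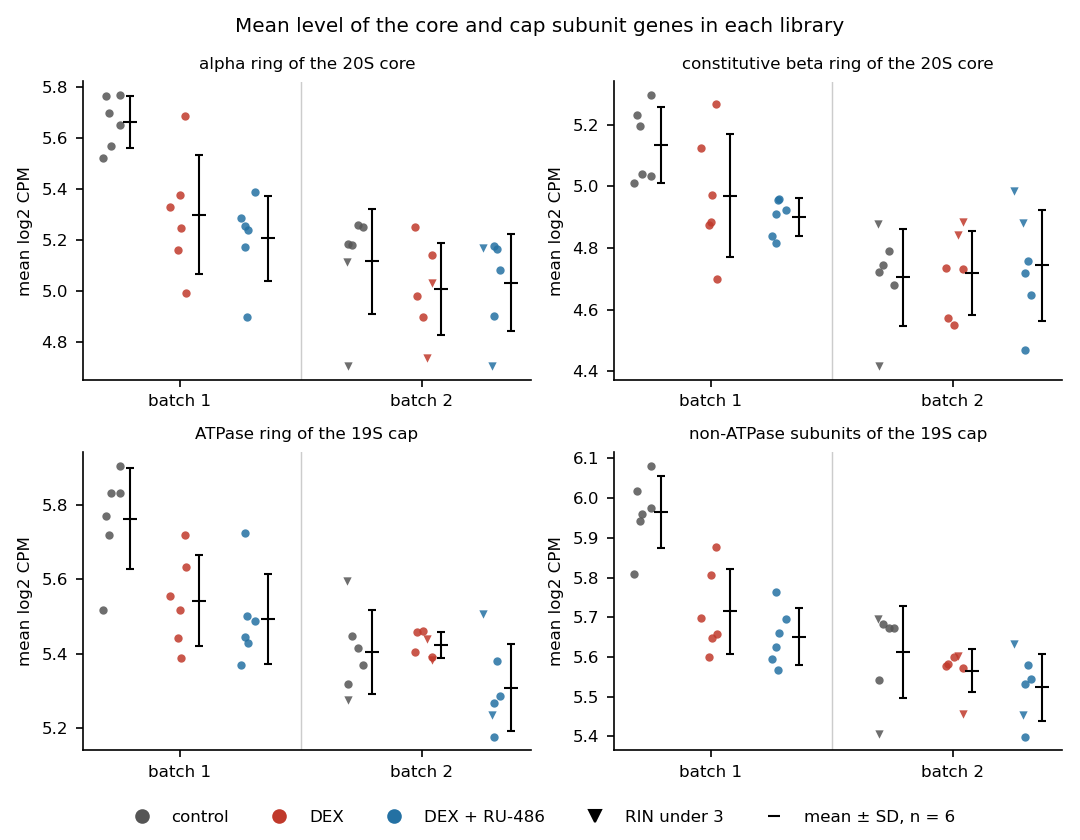
Each point is a library and gives the mean log2 CPM over the 7 alpha, 7 constitutive beta, 6 ATPase and 11 non-ATPase genes, by batch and group, with mean ± SD of 6 libraries. In batch 1 the control mean is the highest in each panel, but DEX library 11 lies inside the control range in every panel. DEX + RU-486 library 13 does so for the ATPases, at 5.72. In batch 2 the groups overlap.

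The class means show the same by library. Over the 31 core and cap genes, the mean log2 CPM was 5.67 ± 0.09 (SD, n = 6) in batch 1 controls, 5.42 ± 0.14 with DEX and 5.35 ± 0.07 with DEX + RU-486. In batch 2 it was 5.26 ± 0.13, 5.22 ± 0.04 and 5.196 ± 0.113. The batch 1 controls ranged from 5.51 to 5.79 and the DEX + RU-486 libraries from 5.27 to 5.45, with no overlap, while DEX reached 5.67. The alpha ring had 5.66 ± 0.10, 5.30 ± 0.23 and 5.21 ± 0.17 in batch 1.

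The other proteasome and ubiquitin genes are 28 tested genes outside the symbol rule. In batch 1, 5 were called lower (9.99% of all genes) and 2 higher (8.99%) with DEX, and 6 lower (8.46%) and 2 higher (6.92%) with DEX + RU-486, so the shares called higher are near those of all genes. Vcp, an unfolding ATPase, was at -0.55 ± 0.09 and -0.61 ± 0.09, and Usp14, a deubiquitinase of the cap, at -0.62 ± 0.15 and -0.55 ± 0.15. Nfe2l2, a stress-response transcription factor, was at 2.12 ± 0.61 and 2.09 ± 0.61. Fbxo32, the muscle-wasting ligase atrogin-1, was higher in batch 1 at 1.85 ± 0.33 with DEX and 1.60 ± 0.33 with DEX + RU-486. Of the other two tested ligases of muscle wasting, Fbxo21 was called lower with DEX at -0.27 ± 0.09 (adjusted p = 0.0427), and Fbxo30 was at -0.26 ± 0.14 (adjusted p = 0.195). Of 9 glucocorticoid receptor targets, 4 were called higher in batch 1 with DEX, among them Per1 at 0.80 ± 0.20 and Tsc22d3 at 0.67 ± 0.22, and 2 with DEX + RU-486. Of 11 interferon and antigen presentation genes, 0 were called with DEX and 1, Tapbp at -0.50 ± 0.13, with DEX + RU-486. None of these lists had a called gene in batch 2.

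The immunoproteasome subunits were near the floor of detection except Psmb10. Psmb8 had 157 counts and Psmb9 374 counts in all 36 libraries, with 0 to 21 and 0 to 48 counts in a library. Per length, Psmb8 had a median of 0.163% of Psmb5 (0 to 4.81%), Psmb9 0.473% of Psmb6 (0 to 8.08%) and Psmb10 34.8% of Psmb7 (17.7% to 57.8%). The highest values of Psmb8 and Psmb9 were both those of control library 20, and the next were 1.75% and 1.99%. These percentages depend on the annotated exon lengths, which differ within each pair. They were 3381 bases for Psmb8 and 899 for Psmb5, 3660 for Psmb9 and 1872 for Psmb6, and 1705 for Psmb10 and 3421 for Psmb7. Psmb10 in batch 1 ranged from 4.54 to 7.54 CPM in controls, 4.03 to 7.32 with DEX and 4.08 to 7.37 with DEX + RU-486, which overlap, and its log2 fold changes were -0.08 ± 0.19 and -0.03 ± 0.19. Psmb9 had 0.58 ± 0.70 and 1.18 ± 0.68 (adjusted p = 0.613 and 0.254). Psmb9 shares exon sequence with Tap1 on the opposite strand, whose mean count is 106. The ratios of Psmb9 to Psmb6 and Psmb10 to Psmb7 were taken as log2 of raw counts with a pseudocount of 0.5. They gave 12 comparisons within batches by two-sided exact permutation tests, and the smallest adjusted p was 0.554. The Psmb10 to Psmb7 difference in batch 1 was 0.21 for DEX and 0.26 for DEX + RU-486, with 3 of the 6 treated libraries above all controls in each. In batch 2 it was -0.17 for DEX and 0.17 for DEX + RU-486, with 0 of the 6 above all controls in each.

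In batch 2, libraries with a RIN under 3 had 12 of 45 members called higher (28.4% of all genes) and 13 lower (26.8%) than those with a RIN of 6 or above. Both shares are near those of all genes, so they are no result about the members. The count with RLE scaling was 14 higher (30.56% of all genes) and 9 lower (24.96%). Psmd4 was higher at 0.67 ± 0.10 (adjusted p = 4.19e-06) and Psmg1 at 0.77 ± 0.16, and the largest value was that of Psmb11, given above. Psmc6, an ATPase, was lower at -0.61 ± 0.09 and Psmg2 at -0.68 ± 0.28. By class, 4 of 7 alpha subunits were lower and 0 higher, 5 of 11 non-ATPase subunits lower and 3 higher, and 1 of 7 constitutive beta subunits higher.

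The batches differed in the same direction for most members. Among the 28 libraries with a RIN of 6 or above, 34 members were called lower in batch 2 than in batch 1 (24.7% of all genes) and 1 higher (23.4%). The median was -0.26, beside 0.01 over all genes. Psmd8 was lowest at -0.51 ± 0.05 and Psmb5 was at -0.45 ± 0.09, while Psme4 (PA200) was higher at 0.33 ± 0.07. In control libraries alone 33 were called lower, and 20.5% of all genes were. Psmd1 was at 0.01 ± 0.09 over all groups and at -0.43 (adjusted p = 0.00373) in controls alone. All 7 constitutive beta subunits and 6 of 7 alpha subunits were lower. Marker levels differed between the batches as well. Over all 6 controls of a batch, summed oligodendrocyte-lineage levels ran from 72.7 to 311 CPM in batch 1 and 440.5 to 2625 CPM in batch 2. Summed neuron markers ran from 3621 to 4598 (median 4093) and 2763 to 6426 CPM (median 3013). The part of cell composition in this difference was not tested. What separates the batches is not stated in the labels.

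**Figure D5:**
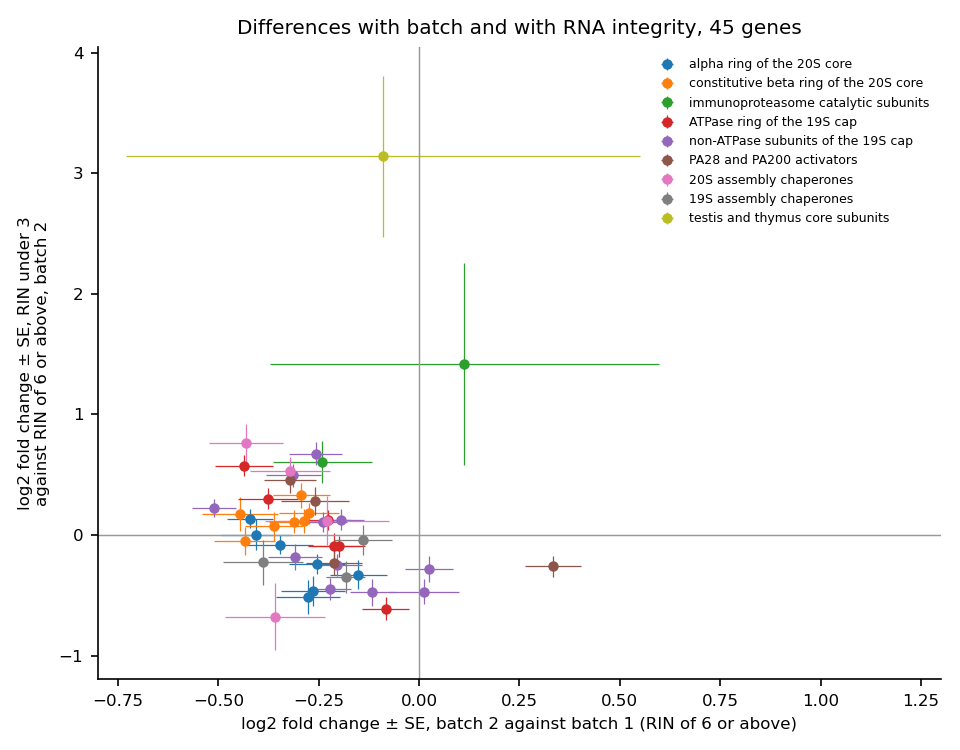
For each of the 45 genes the x axis gives the log2 fold change ± SE of batch 2 against batch 1 in libraries with a RIN of 6 or above, and the y axis that of a RIN under 3 against a RIN of 6 or above in batch 2, colored by class. Most points lie left of 0 on x and on both sides of 0 on y.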

How the data were processed

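RNAseq of 36 libraries was analyzed, 12 per group and 6 per group and batch; groups, batch and RIN came from the labels. The authors deposited a table of raw counts, whole reads per gene without normalization. Per the labels and methods, the authors aligned with HISAT2 2.1.0 to GRCm38 and counted with Subread 1.5.0-p2; a second, composite-genome alignment is described and which one the table holds is not given in the sources used here. The labels give poly(A) selection, the methods a total RNA library. All columns mapped to a library, and no pair of libraries had identical counts. Of 55492 entries, 55227 matched GENCODE M21, which gave symbols, lengths and coordinates. Strand use in counting is not stated.

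Genes with a mean above 5 counts entered edgeR (version 4.0.16, R version 4.3.3; TMM, quasi-likelihood, Benjamini-Hochberg over 20355 genes, calls at an adjusted p under 0.05). The pooled fit held the batch as a covariate; batches were also fitted alone. The SE is the log2 fold change divided by the square root of F. CPM used TMM factors, and mean log2 CPM a prior count of 2. Ratios used exact permutation tests (scipy 1.17.1). DESeq2 1.42.0, RLE and upper-quartile factors, other filters, no batch covariate, RIN as a covariate, RIN of 6 or above, thinning and leaving out each library were alternatives. On simulated data for DEX against control over all libraries, on 20355 genes, 75 of 100 2-fold and 99 of 100 4-fold changes were recovered. In batch 1 these were 71 and 96. Changes under 2-fold, the size of most members' values, were not simulated, so these shares do not apply to them. Depth was 12.1 to 82.4 M counts, which limits the low subunits most.

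Named genes were Psmb5 to Psmb10, Psme1, Psme2 and the 2 members with the smallest p in each of 3 comparisons, in all libraries and in each batch; others are given by class, and those called are listed. The members and lists were chosen with earlier results of these data known.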

Additional observations from a re-analysis of the deposited data

Results flagged for a closer look

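Within each group of 6 libraries of a batch, 138 sets of values were examined for a library far from the others, by the ratio of its gap to the whole range, and 18 were found; chance gives about 1 in 20 groups, and no cause was tested. Control library 20 of batch 2, which had a RIN under 3, was the lowest for the 31 core and cap genes (mean log2 CPM 4.9999, others 5.23 to 5.36), for the alpha ring (4.71, others 5.11 to 5.26), for Psma3 (5.48, others 5.78 to 5.94) and for Psmd1 (5.41, others 6.05 to 6.35), and the highest for Psmb9 (2.33, others -2.38 to -1.14). DEX library 11 of batch 1 was the highest for Psma3 (6.401, others 5.78 to 5.98) and Psma6 (5.56, others 4.89 to 5.13). DEX + RU-486 library 18 of batch 1 was the lowest for Psma4 (4.92, others 5.43 to 5.64) and Psmd1 (5.86, others 6.09 to 6.18). Library 13 of the same group was the highest for the ATPase ring (5.72, others 5.37 to 5.50).

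In batch 2, DEX library 25 was the lowest for the non-ATPase subunits (5.46, others 5.57 to 5.60), library 29 the highest for Psma4 (5.55, others 5.34 to 5.39) and library 27 the highest for Psmc4 (5.79, others 5.45 to 5.55). DEX + RU-486 library 31 was the lowest for Psma6 (4.17, others 4.83 to 5.13), and library 32 the highest for Psmb5 (4.56, others 4.07 to 4.23) and Psme2 (3.97, others 3.28 to 3.53). Control library 19 was the highest for Psme2 (3.90, others 3.54 to 3.63). Control library 1 of batch 1 was the lowest for Psmg4 (2.97, others 3.42 to 3.65).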

How the results depend on the processing

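In libraries with a RIN of 6 or above, 8 members were called for DEX and 12 for DEX + RU-486 in the pooled fit (0 each with all libraries), 6 for DEX in batch 1, and 5 and 1 for the DEX and DEX + RU-486 interactions. With RIN as a covariate the batch 1 counts were 1 for DEX and 2 for DEX + RU-486, with thinned counts 5 and 8 (16.6% and 13.3% of all genes were called), and with RLE factors 6 and 9 (18.5% and 14.7%). DESeq2 called 2 for the DEX interaction (1.749% of all genes in either direction). Leaving out each library gave 0 to 2 (DEX) and 0 to 3 (DEX + RU-486) in the pooled fit, where library 20 alone moved the count, and 6 to 17 and 7 to 17 in batch 1. For DEX in batch 1 the count was 6 without control library 5 or DEX library 8, 9 or 12 (13.97% to 16.91% of all genes). It was 17 without DEX library 11 (19.97%). For DEX + RU-486 it was 8 without control library 2 or 5 or library 17 (9.07% to 11.66% of all genes). It was 9 without control library 4 or 6 or library 18 (9.44% to 14.17%), and 7 without library 15 (10.85%). At an unadjusted p under 0.05 in the pooled fit, the 11 members lower for DEX became 7 with DESeq2, with no filter on low counts, or without control library 2 or 5 or DEX library 27, 6 with RLE or upper-quartile factors, and 5 with at least 10 counts in every library. The 17 for DEX + RU-486 became 10 with upper-quartile factors or at least 10 counts, and 11 without control library 2. With a RIN of 6 or above they were 19 and 27, and in batch 2 the lower count for DEX + RU-486 against DEX went from 1 to 10 (5 with RIN as a covariate, 4 without library 32). No share of all genes at an unadjusted p is given for any alternative, so these counts cannot be set against a background. In the pooled fit with a RIN of 6 or above, 19.7% and 8.86% of all genes were called at an adjusted p under 0.05. With DESeq2, these factors or that filter the DEX median went from -0.10 to between -0.053 and -0.032 and that of DEX + RU-486 from -0.16 to between -0.125 and -0.098, and 15 or 16 members were above 0 for DEX and 5 or 6 for DEX + RU-486. The median over all genes went from -0.0066 to between 0.0139 and 0.0459 for DEX, and from 0.0166 to between 0.0137 and 0.0663 for DEX + RU-486. A change of scaling moves all genes alike, so the counts above 0 with DESeq2 or these factors are no result about the members. The filter instead changes which genes are compared, leaving 43 members and 11666 genes. With it the member medians were -0.032 for DEX and -0.098 for DEX + RU-486. Over all genes they were 0.0139 and 0.0137, so members and all genes did not move alike there. All other counts of called members stayed within 1.5 times. The causes were not tested.

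Directions turned only for uncalled values. The batch 2 DEX median was above 0 without control library 19, 21 or 23 or DEX library 27 (0.010 at most) and -0.038 without DEX library 26, and that of DEX + RU-486 was between -0.039 and -0.029 without control library 19, 21, 23 or 24 or library 31 or 35. Psmb6 with DEX in batch 1 was 0.0228 with DESeq2, 0.0221 with RLE factors, 0.0812 with RIN as a covariate and 0.0301 with a RIN of 6 or above. Psmb10 was 0.28 for DEX with RIN as a covariate, and for DEX + RU-486 0.00819 with DESeq2, 0.254 with RIN as a covariate, 0.0776 with a RIN of 6 or above and 0.00292 with RLE factors. The Psmb9 to Psmb6 ratio in batch 2, DEX + RU-486 against DEX, was -0.0101 with a pseudocount of 5 and -0.15 with a RIN of 6 or above, and DEX against control 0.11 with a RIN of 6 or above. No paired analysis was possible because the library numbers are unique across groups.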
